A study of Mus musculus with 72 samples.

Results

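The P522R variant of Plcg2 was compared with the unmodified gene in the cortex of female mice of an amyloid model. The 2 groups were P522R_5xFAD_F and 5xFAD_F, taken by the genotype and sex in the labels, with 6 mice each and so 12 of the 36 mice in the series. All 12 were female, 7.5 months old and carried the 5xFAD transgenes, which express human genes with familial Alzheimer's disease mutations, that of the amyloid precursor protein among them, under a neuronal promoter and give amyloid plaques. The P522R mice carried in addition the coding change P522R in Plcg2, and the sources used here state neither the number of variant copies nor a strain background. No treatment is named, each mouse has its own number, and every comparison is between plaque-bearing mice. The males of the same 2 genotypes (6 and 6 mice) are used only to test whether the difference was the same in both sexes, and the remaining 12 mice carry M28L and enter only through the shared spread.

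Plcg2 encodes phospholipase C gamma 2, which in the brain is made mainly by microglia, the resident macrophages. It acts below the receptor TREM2 and its adaptor TYROBP and splits a membrane phosphoinositide into inositol trisphosphate, which releases stored calcium, and diacylglycerol, which activates protein kinase C. P522R is a mildly activating change that in people is associated with lower risk of Alzheimer's disease. The question of the comparison is what this variant does to cortical gene expression once amyloid is present. Plcg2 itself was not analysed here, so no measured transcript checks the genotype labels.

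Total RNA of each cortex was measured with 2 NanoString nCounter panels, which count fluorescent barcodes on hybridised probes without amplification. The panels held 757 and 509 genes, 1266 in all, and levels are the deposited log2 values. Each was a normalised count, so a step of 1 is a doubling. Counts recovered from these values were higher in P522R females. On the larger panel 5xFAD females had a total of 1125810 ± 96105 counts (SD over 6 mice) and P522R females 1738930 ± 229911, which is 1.54 times as high. On the smaller panel it was 1.91 times as high. No mouse of one group reached into the other on either panel, and the exact two-sided permutation test gave p = 0.00216, the smallest that 6 against 6 mice allow. In P522R mice the middle value over the 100 dimmest genes was 13.8 ± 2.14 counts (SD over 6 mice) against 4.67 ± 0.52 in 5xFAD mice, or 3.45 against 2.59 in deposited log2 value, so normalisation had not made these low values equal.

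**Figure D1:**
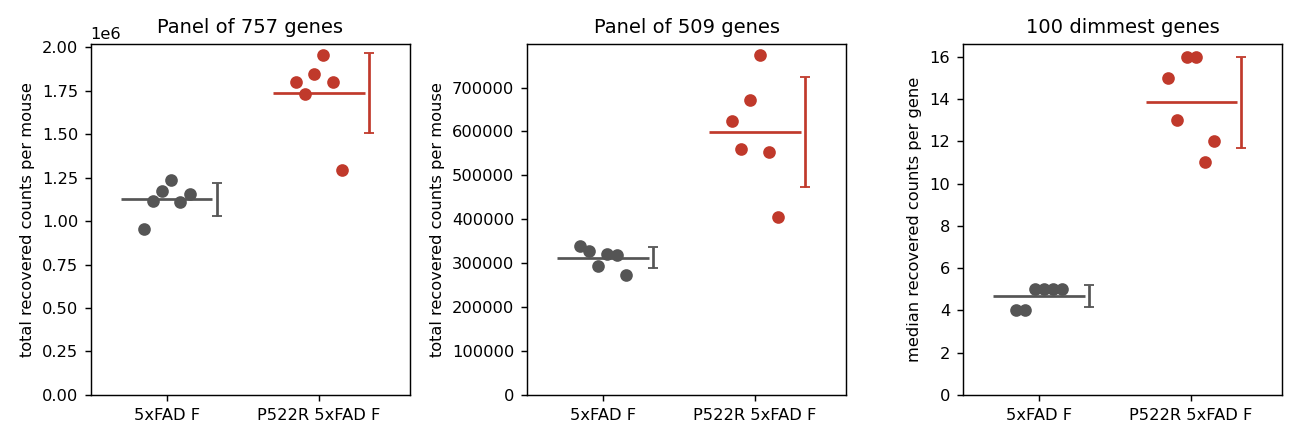
Recovered counts in each female mouse (points), with the group mean (line) and SD (bar at the side), as totals on the panels of 757 and 509 genes and as the median over the 100 dimmest genes. All P522R mice lie above all 5xFAD mice in the 3 plots.

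For this reason each result was read on a second scale as well, over the 1091 genes with a mean log2 level of 5 or more after each mouse was centred on its own median over those genes. The 12 mice also fell into groups over these genes. On the second principal component, with 28.7% of the variance, P522R mice of both sexes lay between -12.12 and -3.20 and all other mice between 0.96 and 11.64. The labels name no run or plate, so the variant and a run cannot be told apart in any difference below. The neuronal genes Syn1, Camk2a and Slc17a7 had log2 levels of 11.78 or more in all 12 females, as cortex should, and the 3 housekeeping genes Tbp, Ywhaz and Gusb were at 0.13, 0.12 and -0.12 log2 difference, none past the threshold on the deposited scale.

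The female P522R cortex differed broadly from the female 5xFAD cortex. Of 1266 genes tested with limma, 762 (60.2%) differed at an adjusted p of 0.05, 498 higher (39.3%) and 264 lower (20.9%), with a median log2 difference of 0.12 over all genes. Most differences were small: 56 of the higher and 2 of the lower genes moved by more than 2-fold. In a fit of the 1091 genes with a mean log2 level of 5 or more, these were 5 and 2, so most of the 56 were dim genes. Median centring over all genes left 732 called genes (57.8%) but moved the split to 359 higher (28.4%) and 373 lower (29.5%). Over the 1091 better measured genes, centred, 667 (61.1%) were called, 404 higher (37%) and 263 lower (24.1%), and 658 of the 660 calls that those genes had on the deposited scale were the same call in the same direction. In 340 genes (26.9%) no P522R female overlapped a 5xFAD female.

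Dim genes differed in 1 direction. Among the 175 genes with a mean log2 level under 5, 101 were called higher and 1 lower, and below a level of 3 the median log2 difference was 0.96 against 0.02 for genes at 11 or more. The 5 largest of these rises were Cd3d at 2.23, Gabrp at 2.04, Sh2d1a at 1.87, Foxp3 at 1.86 and Klrk1 at 1.78. Cd3d, a T cell receptor subunit, was read at 0.25 to 2.53 (median 1.86) in 5xFAD females and at 3.52 to 4.42 (median 3.73) in P522R females. These levels are those of the dimmest genes named above, and 21 of the 25 measured members of the list of lymphocyte and other blood cell genes averaged under 20 counts. On that list 17 were called higher and 0 lower (68% against 39.3% of all genes called higher), with a median of 0.96. The 2 members with a mean level of 5 or more, Cd4 at 0.20 and Cd6 at 0.27, did not pass the test (adjusted p = 0.167 and 0.144).

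**Figure D2:**
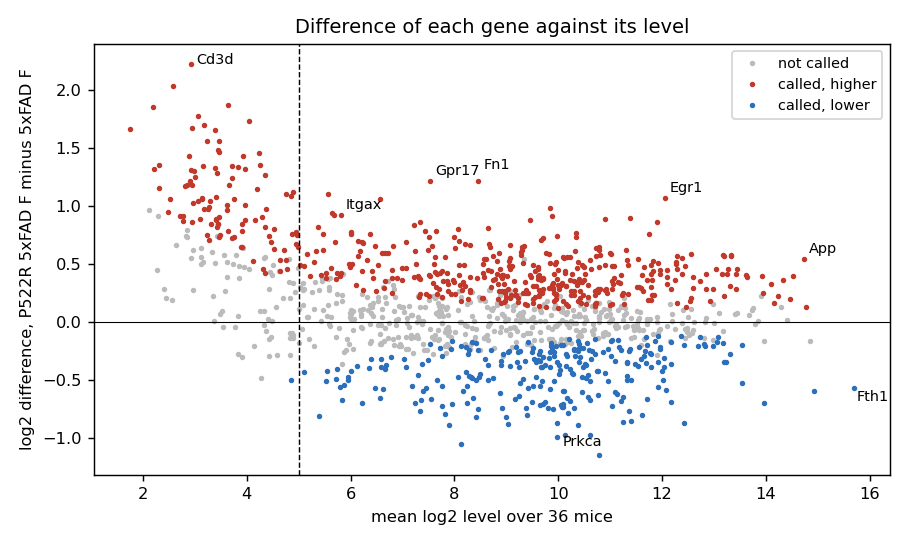
Log2 difference between P522R and 5xFAD females (vertical) against mean log2 level over 36 mice (horizontal), 1 point per gene, coloured by call. Left of the dashed line at a level of 5 nearly all called genes are higher, and right of it genes lie on both sides of 0.

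Among genes with a mean level of 5 or more that were called on both scales, the 10 largest rises joined precursor, astrocyte, neuronal and immune genes. Gpr17, a receptor of oligodendrocyte precursors about to mature, ranged from 6.35 to 7.09 (median 6.75) in 5xFAD females and from 7.59 to 8.49 (median 7.92) in P522R females, a 2.33-fold rise (log2 difference 1.22 ± 0.15 SE, adjusted p = 2.41e-08). Fn1, the matrix protein fibronectin, ranged from 7.1 to 7.9 (median 7.60) and from 8.49 to 9.12 (median 8.83), a rise of 2.32-fold (1.22 ± 0.11 SE, adjusted p = 3.95e-10). In both genes every P522R mouse was above every 5xFAD mouse. Slc18a3, the vesicular acetylcholine transporter, rose 2.152-fold, and Egr1, an activity-induced transcription factor, 2.10-fold. Entpd2, an ectonucleotidase found on astrocytes, rose by 1.06 on the log2 scale and Etv5, an ETS-family transcription factor induced by growth factor signalling, by 0.98. Ticam1 (a Toll-like receptor adaptor), Stab1 (a scavenger receptor), Itgax (the integrin CD11c) and Dagla (the enzyme that makes the endocannabinoid 2-arachidonoylglycerol) rose by 0.94, 0.93, 0.92 and 0.91. Slc18a3, Ticam1 and Stab1 averaged 4.74, 4.90 and 4.89 in 5xFAD females and met the level of 5 only through other groups, so their rises start in the range where nearly all called genes were higher. Of these 10, Itgax was the exception in which the groups overlapped.

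Among the largest falls were genes of protein turnover and of the cell cycle. Txnl1, a thioredoxin-like protein bound to the proteasome, ranged from 7.88 to 8.42 (median 8.24) in 5xFAD females and from 6.81 to 7.76 (median 7.01) in P522R females, 2.07-fold lower (log2 difference -1.05 ± 0.19 SE, adjusted p = 2.16e-05). Cul1, the scaffold of SCF ubiquitin ligases, was at -0.98, and so was Ccnh, a cyclin of the CDK-activating kinase. Cdc27, a subunit of the anaphase-promoting complex, was at -0.88, the zinc finger factor gene Zfp24 at -0.89 and the neural adhesion gene Ncam2 at -0.87. All of these were called, and Zfp24 alone among the 6 had overlapping groups, at 6.41 to 7.68 in P522R females and 7.62 to 8.096 in 5xFAD females.

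The mice were not equally far apart. Over the 263 lower genes with a level of 5 or more, the median SD within a group was 0.20 in P522R females and 0.11 in 5xFAD females, and the SD was larger in P522R females for 79.5% of them. Among genes that were not called it was larger for 67.7%. P522R mouse 54 lay nearest to the 5xFAD mice, with a median of -0.21 over the lower genes against -0.52 to -0.33 in the other 5, and 0.29 over the higher genes against 0.36 to 0.48. That mouse also had the highest total on both panels, and the part of depth in its position was not tested.

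The receptor side of the pathway did not move as a block. Of 16 measured genes of TREM2 and phospholipase C gamma signalling, 5 rose and 4 fell, 56.2% against the 60.2% over all genes, with a median log2 difference of -0.05 against 0.12. Trem2, the receptor, ranged from 8.79 to 9.70 (median 9.34) in 5xFAD females and from 8.47 to 9.46 (median 9.13) in P522R females. Its log2 difference was -0.30 ± 0.18 SE (adjusted p = 0.141), with overlapping groups, and it was called lower only under other scalings, at -0.40 with median centring over all genes (adjusted p = 0.0336), -0.37 with centring within each panel (adjusted p = 0.0459) and -0.34 with housekeeping centring (adjusted p = 0.0399). Tyrobp, its adaptor, fell 1.34-fold, from 10.97 to 11.58 (median 11.31) to 10.23 to 11.45 (median 11.00), again with overlap (-0.42 ± 0.16 SE, adjusted p = 0.0276). The call of Tyrobp ended when any of 4 mice was left out (5xFAD mice 1248 and 1249, P522R mice 60 and 8), furthest without mouse 60, at -0.29 (adjusted p = 0.114).

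Below the receptors, genes of the phosphoinositide 3-kinase branch were unequal. Pik3r1, the regulatory subunit of phosphoinositide 3-kinase, fell 1.63-fold without overlap (-0.71 ± 0.10 SE, adjusted p = 9.14e-07), and the catalytic subunit gene Pik3cb was at -0.21 with overlapping groups (adjusted p = 0.00491). The kinase genes Akt1, Akt2 and Pik3ca were at 0.07, -0.22 and 0.01 and did not pass, though Akt2 was called lower with median centring over all genes, at -0.31 (adjusted p = 0.0112), with quantile normalization (adjusted p = 0.0151) and without any of 3 mice. On the higher side Rasgrp1, a diacylglycerol-activated Ras exchange factor, rose by 0.28 without overlap, from 12.64 to 12.73 up to 12.84 to 13.11 (adjusted p = 1.13e-05). Csf1r, the receptor that microglia need to survive, rose by 0.35 and its ligand Csf1 by 0.30 (adjusted p = 0.0342 and 0.0249), and Fyn, a Src-family kinase, by 0.15. Median centring over all genes ended the calls of Csf1r, Csf1 and Fyn, at 0.25, 0.20 and 0.05, and leaving out any of 6 mice ended that of Csf1r and any of 3 that of Csf1 (adjusted p up to 0.112 and 0.066). Cd33, an inhibitory microglial receptor, Cd84 and the myeloid transcription factor gene Spi1 were at 0.18, -0.16 and -0.12, none past the threshold.

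In the calcium and phosphoinositide arm most genes differed. Of 49 measured members 27 rose and 11 fell, 77.6% against 60.2% over all genes, with a median log2 difference of 0.24. Over the 47 better measured members after centring, 25 rose and 11 fell. Family members went in opposite directions. Prkca, the alpha isoform of protein kinase C, ranged from 9.96 to 10.19 (median 10.05) in 5xFAD females and from 8.61 to 9.83 (median 9.00) in P522R females, 1.99-fold lower (-0.99 ± 0.15 SE, adjusted p = 7.1e-07). Prkcb, the beta isoform, ranged from 12.23 to 12.47 (median 12.39) and from 11.18 to 12.10 (median 11.36), 1.83-fold lower (-0.87 ± 0.11 SE, adjusted p = 1.26e-07). In both genes the 5xFAD mice lay close together and the P522R mice were spread wider, with mouse 54 the highest of these, and the groups did not overlap. The epsilon and delta isoform genes Prkce and Prkcd rose by 0.30 and 0.62.

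Of the channels that release stored calcium, the ryanodine receptors and Itpr1 were higher, and Itpr2 and Itpr3 are not reported here. All 3 ryanodine receptor genes rose, Ryr1 by 0.65, Ryr2 by 0.60 and Ryr3 by 0.66. Ryr2, the most abundant of these in brain, ranged from 9.19 to 9.53 (median 9.35) in 5xFAD females and from 9.78 to 10.13 (median 9.97) in P522R females, without overlap (adjusted p = 1.31e-07). Itpr1, the main neuronal inositol trisphosphate receptor, rose by 0.32 without overlap (adjusted p = 1.47e-06). Plcb1, a phospholipase C of the beta class, rose by 0.41 (adjusted p = 3.81e-08), and Cacna1a, the pore of P/Q-type calcium channels, by 0.73 (adjusted p = 1.5e-09), at 10.39 to 10.64 against 9.66 to 9.93. Atp2b3, a calcium pump of the plasma membrane, rose by 0.65 and Gnao1, the main G protein alpha subunit of neurons, by 0.59. The falls included Cacnb4, an auxiliary calcium channel subunit, at -0.81, the phosphoinositide phosphatase gene Inpp5f at -0.75, the calcineurin catalytic gene Ppp3ca at -0.53, Gnaq, the G protein that activates beta phospholipases, at -0.39 and the calmodulin gene Calm2 at -0.35. Inpp4a, another phosphoinositide phosphatase, rose by 0.62 (adjusted p = 1.11e-08). Most of these genes are at least as abundant in neurons as in microglia, and bulk RNA does not say which cells the difference was in.

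Microglial genes were mixed. Of 33 measured genes of disease-associated microglia, the state found around plaques, 6 rose and 5 fell (33.3% called, median 0.01), and of 27 genes of homeostatic microglia 6 rose and 5 fell (40.7%, median 0.09). Both shares were under the 60.2% of all genes. In bulk cortex, fewer cells of a type and less RNA per cell cannot be told apart. Within the disease-associated list, members parted. Itgax ranged from 5.49 to 6.67 (median 6.18) in 5xFAD females and from 6.19 to 7.93 (median 7.16) in P522R females, a rise of 1.90-fold with overlapping groups (0.92 ± 0.31 SE, adjusted p = 0.0116). Gpnmb, a lysosomal glycoprotein, rose 1.79-fold (adjusted p = 0.00793) and Igf1, insulin-like growth factor 1, 1.69-fold at a level under 5 (adjusted p = 0.000436). Against these, Clec7a, the lectin receptor dectin-1, ranged from 8.46 to 9.168 (median 8.85) and from 7.35 to 8.46 (median 8.26), a fall of 1.73-fold (-0.79 ± 0.23 SE, adjusted p = 0.00367). Gpnmb, Igf1, Clec7a and Cd9, which fell by 0.51 on the log2 scale, were singled out after their values were seen.

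Fth1, the heavy chain of the iron store ferritin, ranged from 15.57 to 15.94 (median 15.78) in 5xFAD females and from 15.02 to 15.35 (median 15.17) in P522R females, 1.48-fold lower without overlap (-0.57 ± 0.08 SE, adjusted p = 7.01e-07). Serpine2, a protease inhibitor, was at -0.35, and Ank, a pyrophosphate transporter, and Gas6, a ligand of the phagocytic receptor MERTK, rose by 0.33 and 0.30. Apoe, the lipid carrier whose alleles set much of the risk of late-onset disease, was at -0.14 ± 0.11 SE (adjusted p = 0.271), with 12.05 to 13.04 in 5xFAD females and 12.31 to 12.81 in P522R females. It was called lower with median centring over all genes, at -0.24 (adjusted p = 0.035), with quantile normalization, at -0.27 (adjusted p = 0.03), and without 5xFAD mouse 1180, at -0.26 (adjusted p = 0.0146).

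Of the homeostatic genes, Aif1, which encodes the microglial marker IBA1, ranged from 8.30 to 9.08 (median 8.92) in 5xFAD females and from 7.77 to 8.38 (median 7.95) in P522R females, 1.77-fold lower (-0.82 ± 0.13 SE, adjusted p = 3.64e-06). The lowest 5xFAD mouse lay just under the highest P522R mouse. Tgfbr1, a receptor for the cytokine that keeps microglia homeostatic, was at -0.57 (adjusted p = 0.000258). Mertk and the small GTPase gene Rhob rose by 0.49 and 0.50. The defining markers Cx3cr1 and P2ry12 were at 0.22 and -0.08 and did not pass, and Tmem119 rose by 0.48 (adjusted p = 0.00871, and 0.0514 with quantile normalization), all 3 named after their values were seen.

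Complement C1q fell. C1qb ranged from 10.15 to 10.90 (median 10.50) in 5xFAD females and from 9.31 to 10.37 (median 9.83) in P522R females, 1.60-fold lower with overlap (-0.68 ± 0.15 SE, adjusted p = 0.000162). C1qa and C1qc, the other chains of the complex that opens the classical pathway, were at -0.44 and -0.35 (adjusted p = 0.00858 and 0.0326). These were the only 3 falls among 14 measured complement and Fc receptor genes, and 4 rose, among them C1ra, a protease of the same complex, at 0.59. The 50% called lay under the 60.2% of all genes, and the share called lower was near the 20.9% of all genes. C1ra averaged 4.75 in 5xFAD females and reached the level of 5 only through other groups. The call of C1qc ended without any of 5 mice (1248, 1249, 49, 60 and 8), with adjusted p up to 0.121. Of 8 antigen presentation genes 1 rose and 3 fell (50% against the 60.2% of all genes called). The immunoproteasome subunit genes Psmb9 and Psmb8 fell, at -0.68 and -0.39, with the class I gene H2.T23 at -0.23. B2m, the class I light chain, and Cd74, the invariant chain, were at -0.04 and 0.27 without passing. Leaving out any of 4 mice ended the call of Psmb8 and any of 3 that of H2.T23 (adjusted p up to 0.0791 and 0.0781). Of 10 interferon response genes 3 rose and 0 fell (30% against the 60.2% of all genes called), and median centring over all genes gave 2 and 2. On the deposited scale Stat2, a transducer of type I interferon, was at 0.42 (adjusted p = 0.00104).

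Of 39 cytokine, chemokine and innate sensing genes 9 rose and 5 fell (35.9% against 60.2% of all genes called). Cx3cl1, the neuronal chemokine that binds the microglial receptor CX3CR1, ranged from 9.64 to 10.66 (median 10.51) in 5xFAD females and from 10.96 to 11.41 (median 11.31) in P522R females, 1.85-fold higher without overlap (0.89 ± 0.13 SE, adjusted p = 9.69e-07). Rela, a subunit of NF-kappaB, rose by 0.34, and Il18, an inflammasome cytokine, was at -0.45 (adjusted p = 0.00038). Among 24 lysosome and phagosome genes 6 rose and 4 fell (41.7% against 60.2%), and median centring over all genes gave 5 and 6. Grn, the lysosomal protein progranulin, rose by 0.72 and Sqstm1, an autophagy receptor, by 0.50. Atp6v1h, a subunit of the proton pump that acidifies lysosomes, fell 1.62-fold, from 12.15 to 12.34 (median 12.27) down to 11.41 to 11.85 (median 11.47), without overlap (-0.69 ± 0.08 SE, adjusted p = 2.04e-08). The 2 cholesterol exporters of the lysosome parted: Npc1 rose by 0.51 and Npc2 was at -0.70 (adjusted p = 0.000104 and 9.43e-05).

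**Figure D3:**
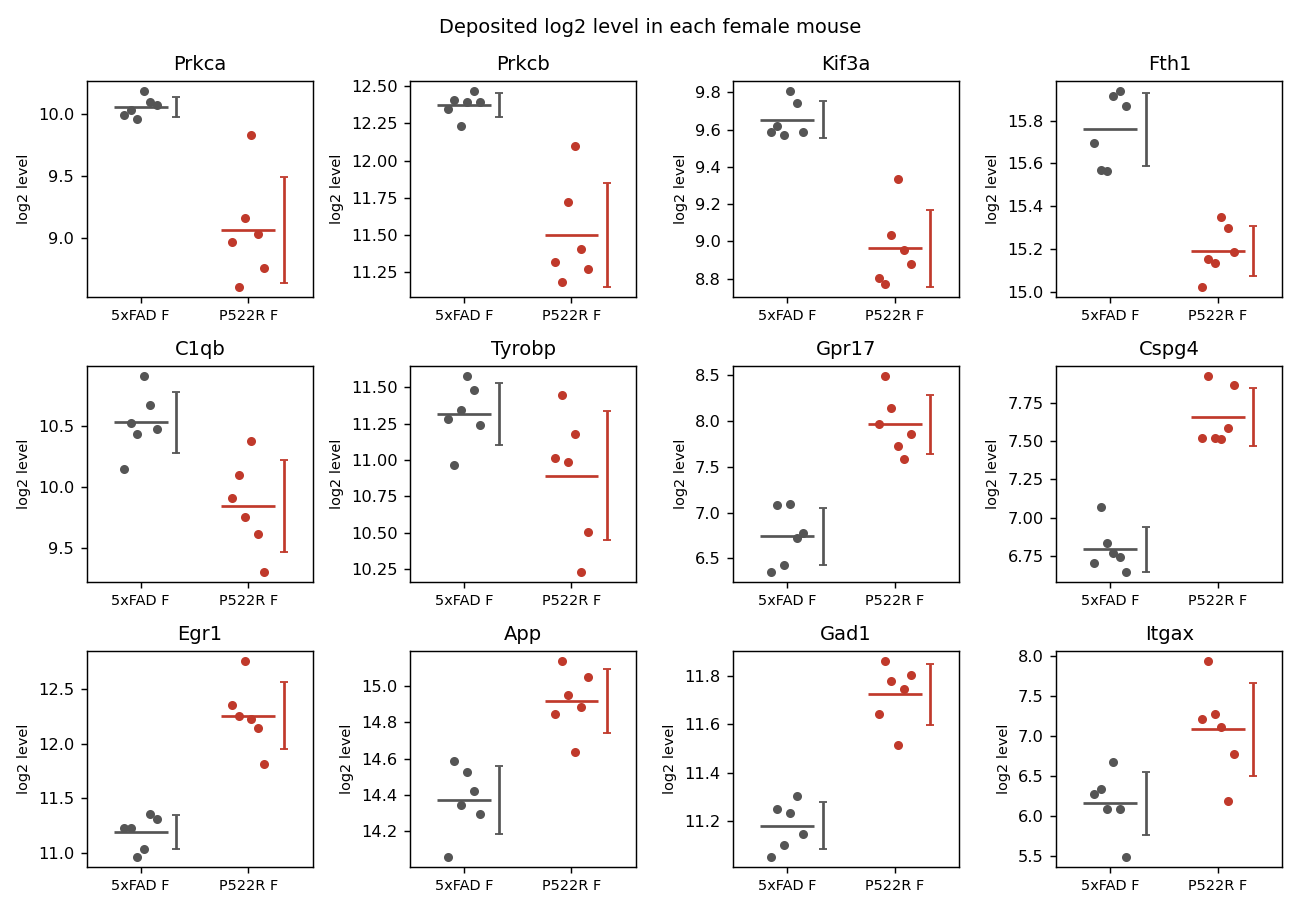
Deposited log2 level of 12 genes in each female mouse (points), with the group mean (line) and SD (bar at the side). Each vertical axis has its own range and does not start at 0. Prkca, Prkcb, Kif3a and Fth1 are lower and Gpr17, Cspg4, Egr1, App and Gad1 higher in all P522R mice, while the groups overlap for C1qb, Tyrobp and Itgax.

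Genes of amyloid precursor handling were mostly higher. Of 15 measured members 10 rose and 3 fell (86.7% against 60.2% over all genes), with a median log2 difference of 0.36 against 0.12, and the counts were the same on the centred scale. App, the precursor itself, ranged from 14.06 to 14.59 (median 14.38) in 5xFAD females and from 14.64 to 15.14 (median 14.92) in P522R females, 1.46-fold higher without overlap (0.55 ± 0.09 SE, adjusted p = 4.27e-06). No source used here states whether its probe also reads the human transgene. Bace1, the beta-secretase, rose by 0.51. Sorl1, which sorts the precursor away from cleavage, rose by 0.55 and Lrp1, a clearance receptor, 1.86-fold, from 10.60 to 10.94 (median 10.74) to 11.38 to 11.95 (median 11.64), without overlap (0.90 ± 0.12 SE, adjusted p = 8.13e-08). Adam10, the main alpha-secretase, fell 1.26-fold (-0.34, adjusted p = 0.000538). Ide, an amyloid-degrading protease, was at 0.44 and counted among the rises, but its call ended without any of 7 mice (adjusted p up to 0.138), with median or housekeeping centring (adjusted p = 0.133 and 0.085) and in fits of the 12 females or of the 24 P522R and 5xFAD mice alone (adjusted p = 0.0862 and 0.0802). Ide and Adam10 were chosen after their values were seen. Of 11 lipid handling genes 4 rose and 1 fell (45.5% against 60.2%), or 3 and 3 with median centring over all genes. Clu, the lipoprotein clusterin, rose by 0.36 while the cholesterol exporter gene Abca1 was at -0.15 (adjusted p = 0.104), and it was called lower with median centring over all genes, at -0.25 (adjusted p = 0.00717), with centring within each panel (adjusted p = 0.0116) and without P522R mouse 106 or 24.

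Oligodendrocyte precursors were the group in which every measured gene rose. All 8 of 8 members were higher (100% against 39.3% of all genes called higher), with a median log2 difference of 0.58, and the 8 calls held after centring on the genes of level 5 or more. With housekeeping centring 7 held, and Ptprz1 was at 0.25 (adjusted p = 0.0567). The summed linear level of the 8 genes was 4336 to 5137 in 5xFAD females and 5673 to 6899 in P522R females, without overlap. Because these members moved together, the 250 bases before the transcription start of 3 of them are printed, from the RefSeq promoter table of build GRCm38.p6, all on the plus strand. Capitals mark the E-box CANNTG, the core letters read by the basic helix-loop-helix factors OLIG1 and OLIG2, and ACAAT, a core read by SOX factors such as SOX10, each searched on both strands.
Cspg4 (chr9:56864854-56865103): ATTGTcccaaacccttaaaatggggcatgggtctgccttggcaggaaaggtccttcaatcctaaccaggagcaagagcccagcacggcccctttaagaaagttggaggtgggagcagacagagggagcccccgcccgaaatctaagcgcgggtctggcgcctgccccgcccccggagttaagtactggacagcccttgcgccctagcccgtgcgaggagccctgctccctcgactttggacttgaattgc
Olig2 (chr16:91225300-91225549): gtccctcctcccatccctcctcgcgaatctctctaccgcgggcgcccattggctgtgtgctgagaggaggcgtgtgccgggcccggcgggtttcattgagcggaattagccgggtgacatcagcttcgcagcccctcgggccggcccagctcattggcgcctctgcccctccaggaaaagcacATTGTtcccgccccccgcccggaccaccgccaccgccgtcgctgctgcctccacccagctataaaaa
Pdgfra (chr5:75152001-75152250): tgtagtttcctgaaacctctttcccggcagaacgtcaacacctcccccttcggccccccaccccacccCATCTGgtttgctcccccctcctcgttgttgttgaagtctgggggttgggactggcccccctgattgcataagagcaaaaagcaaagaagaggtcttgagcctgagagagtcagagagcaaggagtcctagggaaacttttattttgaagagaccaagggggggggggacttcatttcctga

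Of the 8 genes, 5 had an entry in that table, Cspg4, Olig2, Pdgfra, Ptprz1 and Tnr, and the 3 printed are those with a match. CANNTG lay in 1 of the 5 windows, that of Pdgfra, and in 66.2% of all 32851 windows of the same length. ACAAT, in either orientation, lay in 2 of the 5, Cspg4 and Olig2, and in 27.7% of all windows. The motifs can overlap where an E-box ends in the SOX letters, and a match is a description of letters only.

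Cspg4, the NG2 proteoglycan on the surface of precursors, ranged from 6.65 to 7.07 (median 6.76) in 5xFAD females and from 7.52 to 7.93 (median 7.55) in P522R females, a 1.82-fold rise without overlap (0.86 ± 0.12 SE, adjusted p = 4.7e-07). NG2 is also carried by pericytes. Pdgfra, the receptor for the growth factor that keeps precursors dividing, ranged from 8.46 to 8.70 (median 8.58) and from 8.71 to 9.22 (median 9.04), a rise of 1.37-fold (0.45 ± 0.08 SE, adjusted p = 1.59e-05). Its highest 5xFAD mouse lay only just below its lowest P522R mouse. The lineage transcription factor genes Sox10, Olig1 and Olig2 rose by 0.60, 0.62 and 0.57, with overlap for Olig1 and Olig2, and Tnr, the matrix protein tenascin-R, by 0.52 and Ptprz1, a receptor phosphatase, by 0.30 without overlap.

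Myelin genes went both ways. Of 23 measured members 8 rose and 5 fell, with a median of 0.05, and the 56.5% called was near the 60.2% of all genes. Bcas1, a protein of early myelinating cells, ranged from 9.68 to 10.03 (median 9.84) in 5xFAD females and from 9.11 to 9.38 (median 9.27) in P522R females, 1.49-fold lower without overlap (-0.58 ± 0.07 SE, adjusted p = 2.41e-08). Plekhb1 and Ermn, both abundant in mature oligodendrocytes, were at -0.51 and -0.64, and Mbp, myelin basic protein, named after its values were seen, was at -0.22 (adjusted p = 0.00838). Fa2h, which makes the hydroxylated lipids of myelin, rose by 0.56 without overlap (adjusted p = 2.14e-05).

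Astrocyte genes were mostly higher. Of 10 astrocyte genes 7 rose and 1 fell (80% against 60.2% of all genes called), with a median of 0.42. The counts were the same on the centred scale, against 37% of all genes higher and 24.1% lower. Kcnj10, the potassium channel Kir4.1, ranged from 9.83 to 10.14 (median 10.04) in 5xFAD females and from 10.23 to 10.71 (median 10.50) in P522R females, without overlap (0.47 ± 0.08 SE, adjusted p = 1.09e-05). The glutamate transporter gene Slc1a3 and the folate enzyme gene Aldh1l1 rose by 0.46 and 0.45 without overlap, and the transcription factor gene Sox9 by 0.39. S100b, a calcium-binding protein, was the member that fell, at -0.37 (adjusted p = 0.00683), and the water channel gene Aqp4 and Glul, glutamine synthetase, were at 0.16 and 0.12 without passing. Of 30 reactive astrocyte genes 9 rose and 3 fell (40% against 60.2% of all genes called). Stat3, which drives reactive change, rose by 0.61 without overlap, at 9.37 to 9.62 against 8.70 to 9.11 (adjusted p = 3.29e-07), and the heat shock gene Hspb1 by 0.76. S100a10 was at -0.45 without overlap (adjusted p = 0.000621). Gfap, the filament by which reactive astrocytes are usually recognised and named here after its value was seen, was at -0.06 (adjusted p = 0.782).

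Of 17 endothelium and pericyte genes 8 rose and 0 fell. The 47.1% called lay under the 60.2% of all genes, and the share called higher was near the 39.3% of all genes. The list's median was 0.38, and over the 14 better measured members after centring 7 rose and 0 fell. Median centring over all genes left 5 higher and 1 lower, centring within each panel 8 and 1, and quantile normalization 5 and 2. Flt1, a receptor for vascular endothelial growth factor, ranged from 5.49 to 6.22 (median 5.95) in 5xFAD females and from 6.09 to 6.92 (median 6.62) in P522R females, with overlap (0.59 ± 0.14 SE, adjusted p = 0.000541). Esam, an adhesion protein of endothelial junctions, rose by 0.40 and Eng, the TGF-beta co-receptor endoglin, by 0.49. Cldn5, the tight junction protein of the blood-brain barrier, was at -0.24 and Pecam1, a general endothelial marker, at 0.09, neither past the threshold and both named after their values were seen. Cldn5 was called lower with median centring over all genes, at -0.34 (adjusted p = 0.0189), with centring within each panel (adjusted p = 0.0345) and without any of 3 mice.

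**Figure D4:**
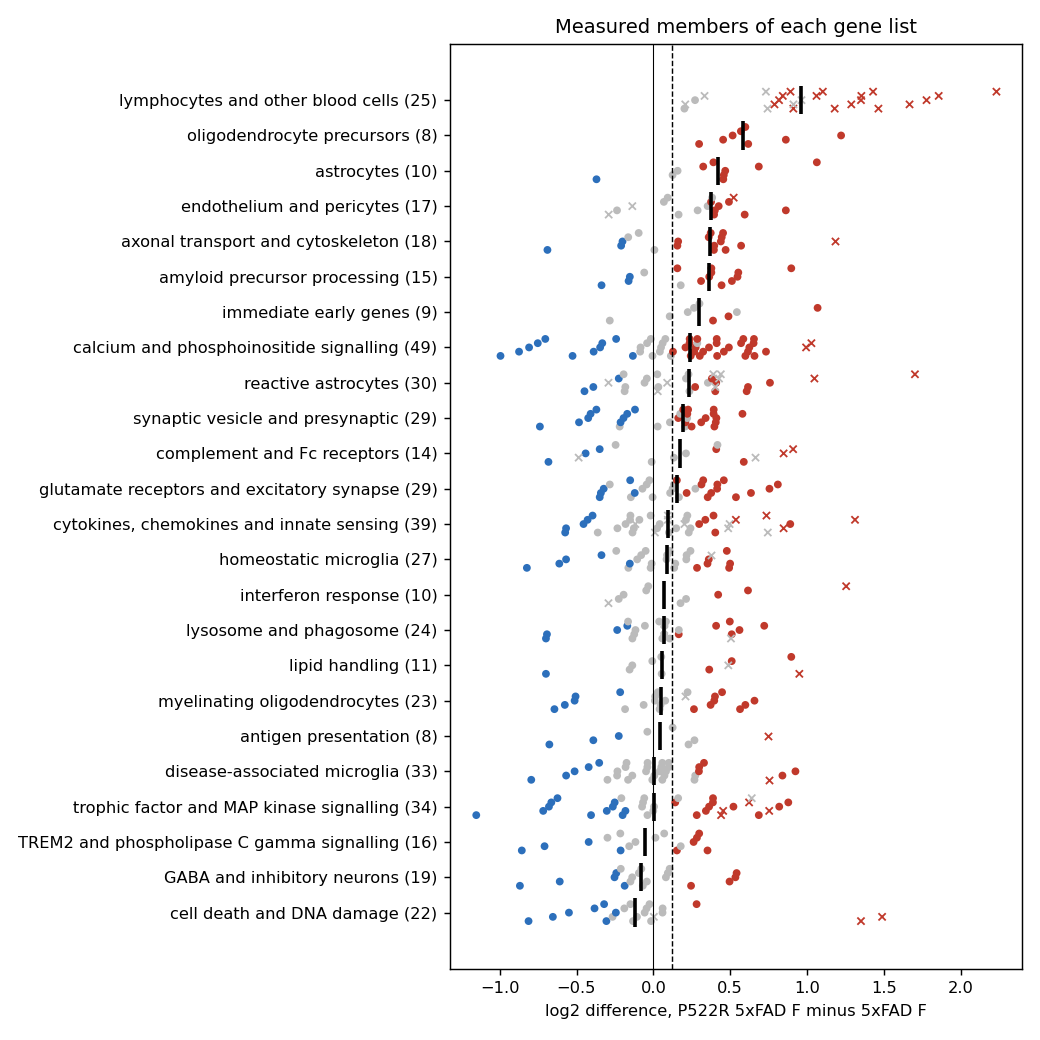
Log2 difference between P522R and 5xFAD females (horizontal) for each measured member of 24 gene lists (rows, number measured in brackets), red for called higher, blue for called lower, grey for not called, crosses for a mean level under 5, with the list median as a bar and the median of all genes, 0.12, as a dashed line. Oligodendrocyte precursor genes lie wholly to the right of 0, and the lymphocyte list is made up almost wholly of crosses.

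Neuronal genes moved in both directions within each class. In inhibitory neurons, the enzymes that make GABA were higher: Gad1 ranged from 11.05 to 11.30 (median 11.19) in 5xFAD females and from 11.52 to 11.86 (median 11.76) in P522R females, 1.46-fold higher without overlap (0.54 ± 0.05 SE, adjusted p = 7.6e-10). Gad2 rose by 0.50 without overlap. Pvalb, the calcium buffer of fast-spiking interneurons, ranged from 10.34 to 10.62 (median 10.54) and from 9.70 to 10.05 (median 9.93), 1.53-fold lower without overlap (-0.61 ± 0.10 SE, adjusted p = 5.11e-06). The receptor subunit gene Gabrb2, chosen after its values were seen, was at -0.87. In all, 4 of 19 members of this list rose and 5 fell, 47.4% against the 60.2% of all genes called.

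At excitatory synapses 13 of 29 genes rose and 5 fell, and the 62.1% called was near the 60.2% of all genes. Shank2, a scaffold of the postsynaptic density, ranged from 7.92 to 8.22 (median 8.138) in 5xFAD females and from 8.77 to 8.99 (median 8.94) in P522R females, a rise of 1.75-fold without overlap (0.81 ± 0.09 SE, adjusted p = 8.02e-09). Dlgap1, another scaffold, rose by 0.54, and Camk2a, the kinase of synaptic plasticity, by 0.41, both without overlap. Slc17a7, the vesicular glutamate transporter of cortical excitatory neurons, rose by 0.42 with overlap. Of 29 presynaptic genes 14 rose and 9 fell (79.3% against 60.2% of all genes called). Syn1, which holds vesicles in reserve, rose by 0.58 and Cltc, the clathrin heavy chain, by 0.40. Dnm1l, the dynamin that divides mitochondria, fell 1.67-fold, from 10.08 to 10.33 (median 10.17) down to 9.167 to 9.94 (median 9.36), without overlap (-0.74 ± 0.12 SE, adjusted p = 6.25e-06).

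Axonal genes were largely higher. Of 18 members 12 rose and 3 fell (83.3% against 60.2% of all genes called), with a median of 0.37. On the centred scale 11 of 17 rose and 3 fell, against 37% of all genes higher and 24.1% lower. The adhesion genes Cntn1 and Nrcam rose by 0.45 and 0.44, and the neurofilament genes Nefh and Nefl by 0.39 and 0.44, all without overlap, Nefl being named after its values were seen. Kif3a, a motor subunit of transport along microtubules, was the outlying fall, from 9.57 to 9.81 (median 9.60) down to 8.77 to 9.34 (median 8.92), 1.61-fold lower (-0.69 ± 0.10 SE, adjusted p = 5.57e-07).

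Of 9 immediate early genes, which neurons switch on with activity, 3 rose and 0 fell (33.3% against 60.2% of all genes called). Egr1 ranged from 10.96 to 11.35 (median 11.23) in 5xFAD females and from 11.81 to 12.76 (median 12.24) in P522R females, 2.10-fold higher without overlap (1.07 ± 0.15 SE, adjusted p = 3.31e-07). The orphan receptor gene Nr4a2 rose by 0.49 and Bdnf, brain-derived neurotrophic factor, by 0.39. Arc, whose protein removes glutamate receptors from synapses, had 7.82 to 8.82 in 5xFAD females and 8.02 to 9.92 in P522R females (0.54 ± 0.25 SE, adjusted p = 0.0555), and Fos had a log2 difference of 0.22 ± 0.29 SE (adjusted p = 0.511). Arc passed on the genes of level 5 or more after centring (adjusted p = 0.047), and Fos did not.

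Among 22 cell death and DNA damage genes 3 rose and 7 fell (45.5% against 60.2% of all genes called). Cycs, cytochrome c, ranged from 5.36 to 5.72 (median 5.58) in 5xFAD females and from 4.539 to 5.02 (median 4.78) in P522R females, 1.76-fold lower without overlap (-0.81 ± 0.16 SE, adjusted p = 6.17e-05). Xiap, an inhibitor of caspases, was at -0.65 and Casp8, an initiator caspase, at -0.55, while the survival gene Bcl2l1 rose by 0.28 (adjusted p = 0.000165). The list thus held falls of genes that promote and genes that restrain cell death. Of 34 genes of trophic factor and MAP kinase signalling 14 rose and 11 fell (73.5% against 60.2% of all genes called), with a median of 0.00.

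The same fit tested, two-sided, whether the signed difference between P522R and 5xFAD mice was the same in females and males. A gene higher in females by this test can also be one that fell further in males. In males 640 genes (50.6%) were called, 339 higher (26.8%) and 301 lower (23.8%). Of the female calls, 244 rises and 184 falls were called in the same direction in males, 33 were called in the opposite direction and 301 were not called in males. The difference between the sexes itself passed for 264 genes (20.9%), 199 higher (15.7%) and 65 lower in females relative to males. This split turned with the scaling: median centring over all genes gave 258 calls (20.4%), 95 higher (7.5%) and 163 lower, and the centred genes of level 5 or more gave 249 (22.8%), 150 higher (13.7%) and 99 lower. In males the total counts of the genotypes overlapped, with exact permutation p = 0.223 and 0.517 for the 2 panels. The 100 dimmest genes nevertheless parted in males as well, at 14.3 counts in P522R and 9.92 in 5xFAD mice, or 3.92 against 3.396 in deposited log2 value (exact permutation p = 0.00216). The part of depth in the sex difference was not tested.

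On the deposited scale, vessel genes had the largest share of sex differences among the 24 lists. For 10 of 17 members the P522R difference was higher in females than in males and for 0 lower, against 15.7% of all genes higher, and over the better measured members after centring it was 8 of 14 against 13.7%. With median centring over all genes 4 of 17 remained higher, against 7.5%, and quantile normalization left 4 higher and 1 lower. Flt1 was at 0.59 in females and -0.51 in males (difference 1.107, adjusted p = 0.000156), and Cldn5 at -0.24 and -0.73 (difference 0.49, adjusted p = 0.0436). Tie1, Icam2, Pecam1, Emcn and Abcb1a, all endothelial and named after their values were seen, had differences of 0.76, 0.70, 0.57, 0.49 and 0.57. In Pecam1, Emcn and Abcb1a the male fall was the larger part, and in Tie1 and Icam2 a female rise and a male fall both entered. The calls of the female rise in Tie1 and Icam2 ended with median centring over all genes (adjusted p = 0.0745 and 0.0668). They also ended with quantile normalization (adjusted p = 0.143 and 0.275) and housekeeping centring (adjusted p = 0.0634 and 0.0658). Of the 17 members, 3 were called higher and 6 lower in males, against 26.8% and 23.8% of all genes. The sex difference of Cldn5 was lost without any of 5 female mice and that of Emcn without any of 3 (adjusted p up to 0.101 and 0.0517).

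In oligodendrocyte precursors 4 of 8 members differed between the sexes, all higher in females, against 15.7% of all genes higher. On the centred scale it was 3 of 8, against 13.7%. In males themselves 5 of the 8 members were called higher and 0 lower, against 26.8% and 23.8% of all genes. Gpr17 was at 1.22 in females and 0.38 in males (difference 0.84, adjusted p = 0.00373), Olig1 at 0.62 and -0.19 (0.81, adjusted p = 0.00213), Sox10 at 0.60 and -0.04 (0.64, adjusted p = 0.0109) and Cspg4 at 0.86 and 0.35 (0.51, adjusted p = 0.0309). That of Cspg4 was lost without any of 4 female mice (adjusted p up to 0.0572). Pdgfra was at 0.45 and 0.48, with a difference of -0.02 and a 95% interval of -0.26 to 0.21.

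**Figure D5:**
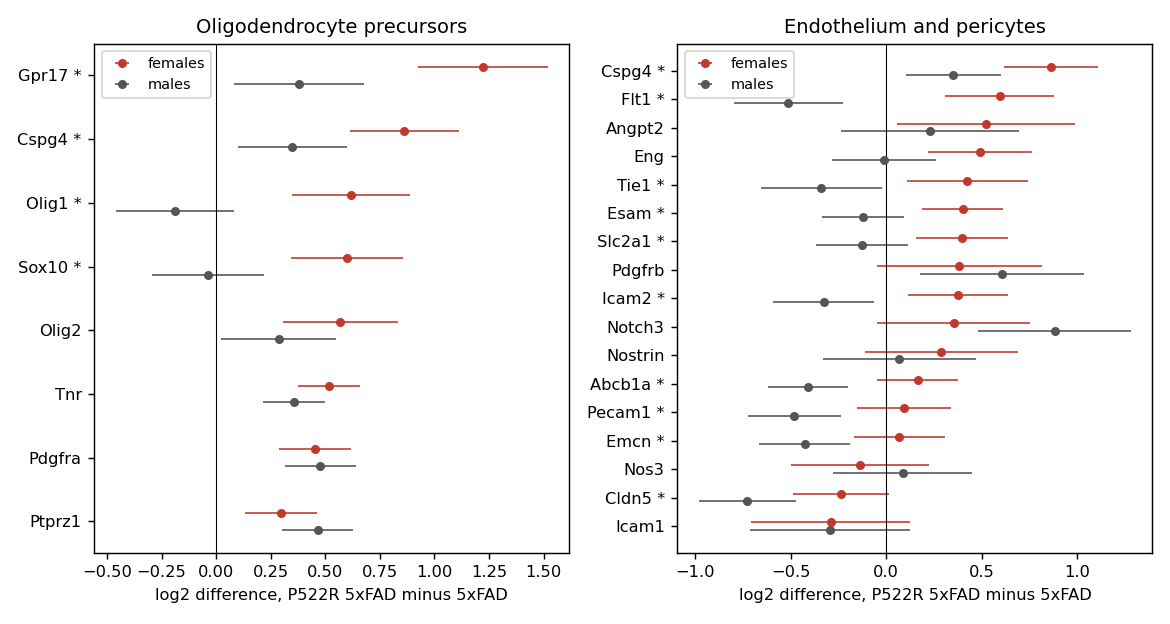
Log2 difference between P522R and 5xFAD mice (horizontal, with 95% intervals) in females (red) and males (grey) for each oligodendrocyte precursor gene (left) and endothelium or pericyte gene (right). A star marks genes whose difference between the sexes passed the threshold, 4 on the left and 10 on the right, and at each star the female value is the higher.

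Of the axonal genes, 8 of 18 were higher and 1 lower in females relative to males, 9 in all against 20.9% of all genes, and 8 and 1 of 17 on the centred scale. Nefl was at 0.44 in females and -0.23 in males (difference 0.68, adjusted p = 0.000169) and Nefh at 0.39 and -0.04 (0.44, adjusted p = 0.000457). Over all genes of level 5 or more the smallest p belonged to Rnf10, a RING finger protein, at 0.28 in females and -0.60 in males (0.87, adjusted p = 2.68e-07). The neuronal genes Atcay, Tln2, Cadm3, Camk2b and Shc3 and the G protein gene Gnai2 were also among the 8 smallest, with differences of 0.73, 0.69, 0.62, 0.62, 0.72 and 0.45. In Atcay, Cadm3, Camk2b and Gnai2 the male fall was the larger part, with -0.96, -0.66, -0.66 and -0.59 in males against -0.23, -0.04, -0.04 and -0.13 in females. In Rnf10, Tln2 and Shc3 a female rise and a male fall both entered, and there too the male fall was the larger. The largest positive differences among genes of level 5 or more were those of Cd74, at 0.27 in females and -1.12 in males (1.39, adjusted p = 0.00415), and Entpd2, at 1.06 and -0.14 (1.21, adjusted p = 0.000357).

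Of the genes described for the TREM2 and calcium pathways, Prkca and Prkcb were at -1.44 and -1.24 in males, and their differences of 0.44 and 0.36 did not pass (adjusted p = 0.13 and 0.114). Camk2a and Gnao1 rose in females and were at -0.12 and 0.15 in males, with differences of 0.54 and 0.43 (adjusted p = 0.000995 and 0.0011). Rasgrp1 went the other way, at 0.28 in females and 0.56 in males (-0.28, adjusted p = 0.00437). Trem2 was at -0.30 and -0.31, with a difference of 0.01 and a 95% interval of -0.49 to 0.52.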

How the data were processed

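Cortical RNA of 36 mice was measured on 2 NanoString panels, which makes 72 records for 36 deposited columns. The authors deposited log2 values per gene and mouse, with both panels joined, and no source used here states how they were normalised. Of 1517 rows, 251 named no gene and were left out. Of the 1266 symbols, 1251 matched the GRCm38.p6 table directly, 3 with a dot read as a hyphen and 6 as synonyms. On the linear scale 100.00% of values were whole multiples of a step per panel and mouse, within 0.05 counts, which gave the counts used for depth. Group tests used limma 3.58.1 in R 4.3.3 on the log2 values, with 1 mean per genotype and sex over all 36 mice, eBayes with a trend, two-sided, Benjamini-Hochberg over all genes tested and an adjusted p of 0.05; no pseudocount was added and fold changes are 2 to the power of a log2 difference. The fit was checked on simulated mice. The centred scale keeps genes with a mean log2 level of 5 or more and subtracts each mouse's median.

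The members, the gene lists and the naming rule were chosen with earlier results of these data known, so counts over a list are descriptions beside the same over all genes. The rule took Trem2, Tyrobp, Apoe, App and Plcg2, the 10 largest rises and falls called on both scales, the 4 smallest p of each list at a level of 5 or more, all members of lists with 12 or fewer and of the TREM2 and calcium lists, the 8 smallest p between the sexes and the 5 largest rises of dim genes; the text names a part of these, and some are not reported here. Pairs of mice in a group differed by a chi-square of 2.21 to 12.52 per gene in 5xFAD females and 8.76 to 42.88 in P522R females, so none was counted as a repeat. The labels give mouse numbers and index numbers; deviations of same-index females correlated at -0.10 to 0.02 over 1091 genes, so the index was not taken as a pairing. Alternatives were other scalings, filters, a pseudocount of 20, other variance models and sample sets, an index block and leaving out each female mouse.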

Additional observations from a re-analysis of the deposited data

Results flagged for a closer look

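A single mouse stood apart from the other 5 of its group in 14 of 332 checks of a named gene or of depth, where chance alone gives about 1 in 20, or 16.6. Among 5xFAD females these were mouse 1189 for Camk2b at 11.07, Npc1 at 9.50 and Tbp at 8.09, mouse 1180 for Grn at 8.82 and Nefl at 9.09, mouse 1253 for Gpnmb at 6.63 and Ptprz1 at 11.15, mouse 1248 for B2m at 12.63 and mouse 1190 for Pecam1 at 6.20 (log2 levels). Among P522R females they were mouse 60 for Fyn at 10.29 and Tbp at 7.76, mouse 54 for Pik3cb at 9.20 and mouse 106 for S100a10 at 9.37. P522R mouse 8 had the lowest total on the panel of 757 genes, 1295271 counts against 1729767 in the next.

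For the following named genes the difference between P522R and 5xFAD mice itself differed between the sexes (limma, adjusted p under 0.05), given as the female minus the male log2 difference. In vessel genes it was 1.107 for Flt1, 0.76 for Tie1, 0.70 for Icam2, 0.57 for Pecam1, 0.57 for Abcb1a, 0.52 for Esam, 0.49 for Cldn5 and 0.49 for Emcn. In the oligodendrocyte lineage it was 0.84 for Gpr17, 0.81 for Olig1, 0.64 for Sox10, 0.51 for Cspg4, 0.51 for Mbp and 0.40 for Bcas1. In astrocyte and matrix genes it was 1.21 for Entpd2, 0.68 for Sox9, 0.53 for Stat3, 0.45 for Fn1, 0.41 for Aldh1l1 and -0.45 for S100a10. In immune, lipid and lysosomal genes it was 1.39 for Cd74, 1.06 for Stab1, 0.74 for Ticam1, 0.64 for C1ra, 0.57 for Grn, 0.49 for Apoe, 0.37 for Clu and 0.32 for Sqstm1. In calcium and kinase signalling it was 0.54 for Camk2a, 0.62 for Camk2b, 0.47 for Ryr1, 0.43 for Gnao1, 0.45 for Gnai2, 0.42 for Cacna1a, 0.40 for Inpp4a, 0.36 for Prkce, 0.25 for Akt1 and -0.28 for Rasgrp1. In other neuronal genes it was 0.73 for Atcay, 0.72 for Shc3, 0.69 for Tln2, 0.68 for Nefl, 0.63 for Slc18a3, 0.62 for Cadm3, 0.59 for Shank2, 0.46 for Kif3a, 0.44 for Slc17a7, 0.44 for Nefh, 0.42 for Dagla, -0.31 for Cltc and -0.40 for Ncam2. Elsewhere it was 0.87 for Rnf10, 0.66 for Etv5 and, at levels under 5, 1.79 for Sh2d1a and 1.49 for Klrk1. Leaving out single female mice ended some of these calls: any of 8 mice for Aldh1l1 (adjusted p up to 0.092), any of 7 for Fn1 and for Grn (0.0958 and 0.101), any of 5 for Cldn5 (0.101), any of 4 for C1ra, Ryr1 and Cspg4 (0.0847, 0.075 and 0.0572), any of 3 for S100a10, Dagla and Emcn (0.0615, 0.0586 and 0.0517) and mouse 1180 for Akt1 (0.0568).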

How the results depend on the processing

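The count of genes called between the female groups stayed within 1.5 times of 762 under all 14 alternatives and all 12 omissions of a mouse, the fewest with the replicate block by index. Leaving out each mouse gave 700 to 786 calls, 447 to 525 higher and 239 to 278 lower; on the centred genes of level 5 or more it gave 619 to 684, 365 to 423 higher and 244 to 261 lower. Housekeeping centring of those genes, chosen after seeing the data, took the higher calls from 404 to 263. With the replicate block by index, 542 genes were called between the female groups, 360 higher and 182 lower. Of 134 named genes called, median centring ended 6 calls, quantile normalization 4, housekeeping centring 11 and the index block 13. Under quantile normalization Fth1 was at 0.00, since it was the top gene of its mice and that method gives the top rank 1 value.

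The sex difference depended more on the setting. It had 264 calls (199 higher, 65 lower), 158 with housekeeping centring, 5 of them lower, and 137 with the replicate block by index, 111 higher and 26 lower. Housekeeping centring rests on 3 genes, which were themselves called between the male genotypes, 2 higher and 1 lower, against 50.6% of all genes called. Their median log2 difference in males was 0.27. Median centring gave 95 higher and 163 lower, centring within each panel 130 higher, quantile normalization 111 higher and 130 lower, and the centred genes of level 5 or more 99 lower. Leaving out each female mouse gave 211 to 289 calls, 164 to 216 higher and 41 to 77 lower, the fewest lower without 5xFAD mouse 1249. The causes were not tested. Limits are that 1 mean per group rests on 6 mice, that variant and run cannot be told apart, and that levels under 5 were higher in P522R mice of both sexes, and total counts were higher in P522R females.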
